A study of Danio rerio with 63 samples.

Results

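The genes described here are the cyclins, cyclin-dependent kinases (Cdks) and Cdc genes of zebrafish (Danio rerio), 59 of the 32057 genes counted. They are the genes whose symbol begins with ccna, ccnb, ccnd, ccne or ccnh, with cdk, or with cdc, followed by a digit, apart from those beginning with cdc42. The set holds 11 cyclins, 27 genes with a cdk symbol and 21 with a cdc symbol. Its members were taken by name, under a rule set with earlier results of these data known, and no ccnh gene with a digit is in the table. Some cdc symbols recall a yeast cell division screen and belong to proteins with other roles, such as cdc5l and cdc40 in splicing, cdc73 in transcription elongation and cdc123 in translation.

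Cyclins bind and activate Cdks, and the pairs drive the steps of the cell cycle. D-type cyclins with Cdk4 and Cdk6 act in G1, E-type cyclins with Cdk2 at the entry into S phase, A-type cyclins in S and G2 phase, and B-type cyclins with Cdk1 in mitosis. The early zebrafish embryo divides fast and in synchrony on products laid down in the egg. At the midblastula transition the cycle lengthens, zygotic transcription begins, and much of the maternal RNA is degraded.

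The tissue was blastoderm explants, pieces cut from embryos at about 3 hours post fertilization (hpf) and kept in culture medium. There were 3 conditions: uninjected embryos, embryos given 10 pg of mRNA for the Nodal ligand ndr2 at the 1-cell stage, and embryos given 0.5 pg of mRNA for CA-acvr1b*, the Nodal receptor in constitutively active form. Each condition was collected in 3 lettered replicates at 4, 4.7, 5.3, 6, 8, 9 and 11 hpf, stages labelled sphere, 30% epiboly, 50% epiboly, shield, 75% epiboly, 90% epiboly and 2-somite, which gives 63 libraries in 21 groups. The sources used here name no separate clutches for the letters, so p-values measure the spread between these libraries, which may be technical.

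Library totals were 11756626 to 19650245 counts with a median of 15620678, so that the floor of 3 counts corresponded to 0.144 to 0.275 CPM (counts divided by the library total and scaled to a fixed total). Such floors cover counting error only. Of the 59 genes, 47 passed the filter on low counts that left 19069 genes for testing. Values below are CPM scaled by TMM library factors, in the order of replicates A, B and C. A gene is called where the edgeR quasi-likelihood test gives a Benjamini-Hochberg adjusted p under 0.05 over all 19069 genes, and log2 fold changes are given ± SE. Polyadenylated RNA was sequenced, so a change in transcript amount cannot be told apart from a change in poly(A) tail, nor fewer cells of a type from less RNA per cell. The counts do not separate maternal from zygotic copies of a transcript.

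Of the other 12 genes, 9 held at most 5 counts over all 63 libraries together. They included cdk1, the mitotic Cdk, with 5 counts, cdc6, a replication licensing factor, with 3, cdk9, which releases paused RNA polymerase II, with 3, and cdc26, a subunit of the anaphase promoting complex, with 4. The remainder were cdk17 and cdk5r2a with 1 each, cdk5r2b and cdk5rap1 with 2 each and cdk5rap3 with 0. Dividing cells use Cdk1, so these counts were not read as an absence of the transcript, and how they arose was not tested. Among the 25107 genes annotated as protein coding, 3242 held at most 5 counts. The Cdk5 activators cdk5r1a and cdk5r1b held 32 and 37 counts, and cdk21, a relative of cdk4 and cdk6, held 101.

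Features of single replicates bear on the results. Uninjected replicate A had the lowest of the 3 values for 12 of the 19 falling genes defined below at sphere, 16 at 50% epiboly and 13 at 2-somite, and the highest value for 9 of the 11 rising genes at sphere. Single letters stood out in the injected conditions too. For the same 19 genes CA-acvr1b* replicate B was lowest for 12 at 50% epiboly and 11 at 2-somite, and ndr2 replicate A for 11 at 50% epiboly. In uninjected replicate C, ccne1 was far below the other libraries at the first 3 stages.

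In uninjected explants more genes of the set fell than rose between sphere and 2-somite. Of the 47 genes tested, 38 were called between these stages, against 66.3% of all genes. Of these, 26 were lower, where 33.1% of all genes were lower, and 12 were higher, where 33.2% of all genes were higher. The median log2 fold change was -0.58 over the 47 genes and 0.03 over all genes. Leaving out replicate A throughout gave 35 calls. In all, 19 genes fell by at least 1 on the log2 scale, against 27.0% of all genes, and 11 rose by as much, against 28.3%. Of the genes that neither fell nor rose by as much, ccnd1 peaked between the ends, cdk16 dipped, and 15 changed by less or were not called. A rising gene could also be highest at an intermediate stage, as ccne2 was at shield. Of the 11 cyclins, 7 fell, 3 rose and 1 peaked. The heatmap of group means includes the injected explants, where 37 genes were called in each condition against 67.9% of all genes with ndr2 and 67.8% with CA-acvr1b*.

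**Figure D1:**
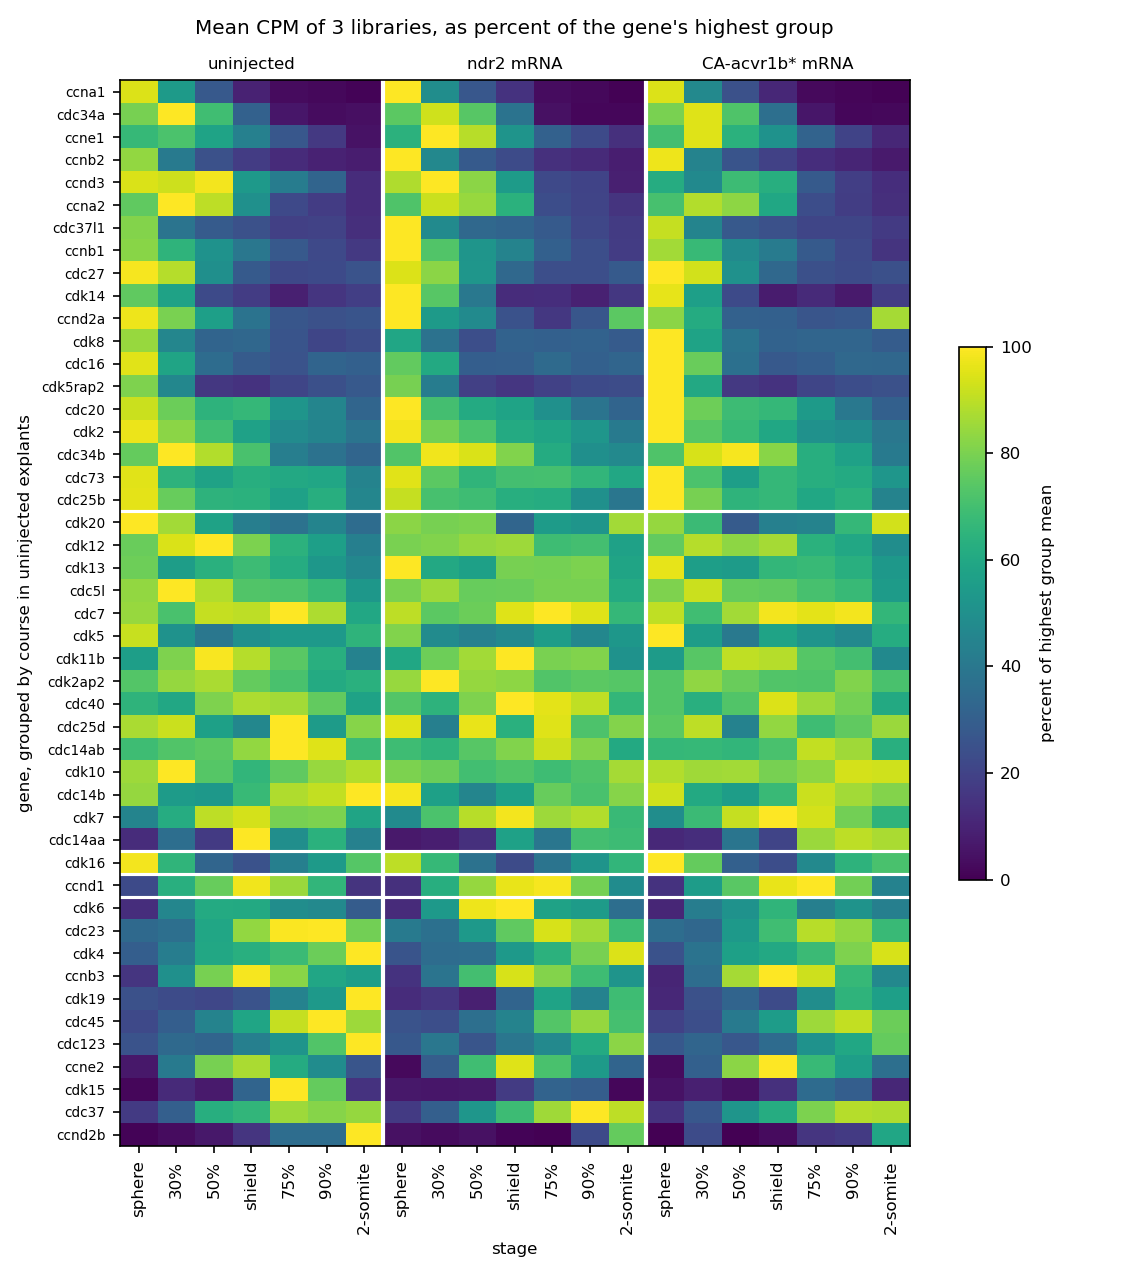
Heatmap of the 47 tested genes (vertical axis) over the 7 stages of each condition (horizontal axis), coloured by the mean CPM of 3 libraries as percent of the gene's highest group mean. White lines separate conditions and course classes, from the 19 falling genes at the top to the 11 rising genes at the bottom. The ccnd1 row stays brighter at 2-somite in both injected conditions than in uninjected explants.

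The step with the most calls was the first. Between sphere and 30% epiboly, 23 of the 47 genes were called in uninjected explants against 27.3% of all genes, 12 of them higher (17.0% of all genes) and 11 lower (10.3%). The later steps gave 14 genes from 30% to 50% epiboly (24.9% of all genes), 9 from 50% epiboly to shield (17.6%), 11 from shield to 75% epiboly (15.8%) and 11 from 90% epiboly to 2-somite (10.1%). All 11 genes of that last step were lower, where 6.30% of all genes were lower. The step from 75% to 90% epiboly gave no call in the set in edgeR (0% of all genes) or DESeq2. In edgeR 5 of the 47 genes had an unadjusted p under 0.05.

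Both A-type cyclins fell, but on different schedules. ccna1 (ENSDARG00000043236), an A-type cyclin known from the germ line in mouse and from early embryos in Xenopus, had 726, 1063 and 1227 CPM at sphere in uninjected explants. Its values at shield were 71.8, 131 and 107 CPM. At 2-somite 10.6, 15.4 and 11.2 CPM were left. The stages did not overlap, and the fall to 2-somite was 80.9-fold (log2 fold change -6.34 ± 0.48, edgeR adjusted p 2.70e-15). ccna2 (ENSDARG00000011094), the A-type cyclin of most dividing cells, instead rose first, from 1787, 1479 and 1422 CPM at sphere to 2038, 2281 and 1869 CPM at 30% epiboly. The log2 change of that step was 0.40 ± 0.14 with an edgeR adjusted p of 0.0261, and the 3 libraries of each stage did not overlap. ccna2 then declined to 215, 287 and 273 CPM at 2-somite, 6.05-fold below sphere. Of the reads of the pair, ccna2 took 53.7 to 71.1% at sphere and 94.9 to 96.1% at 2-somite, shares that also reflect transcript length and are compared here only between stages. Over the same interval 6 of 6 germ cell markers were lower, with a summed level of 297 to 343 CPM at sphere and 6.04 to 19.0 CPM at 2-somite. The sum of 10 enveloping layer markers went from 136 to 925 CPM to 27922 to 37249 CPM. Of the 9 enveloping layer markers tested, 8 were called higher and grhl3 was called lower (-1.16 ± 0.38 on the log2 scale). The part of either cell type in the courses was not tested.

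The B-type cyclins split in the same interval. ccnb1 and ccnb2, which activate Cdk1 for mitosis, were called as lower at every step from sphere to 75% epiboly. ccnb1 went from 1774, 1848 and 1992 CPM at sphere to 353, 404 and 389 CPM at 2-somite, a log2 change of -2.29 ± 0.14 (edgeR adjusted p 1.92e-20). ccnb2 went from 649, 964 and 1265 to 89.8, 91.0 and 92.9 CPM, a log2 change of -3.39 ± 0.17 (edgeR adjusted p 2.90e-23). In neither gene did the 2 stages overlap. ccnb3, the remaining B-type cyclin, moved the other way. It had 6.51, 6.06 and 2.57 CPM at sphere, 19.1, 18.1 and 11.8 at 30% epiboly and 32.2, 36.5 and 27.6 at shield, where it was highest. The first of these steps, 1.69 ± 0.24 on the log2 scale (edgeR adjusted p 3.79e-07), already separated the libraries. At 2-somite ccnb3 kept 16.8, 18.9 and 19.2 CPM, 3.62-fold above sphere.

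Of the E-type cyclins, ccne2 rose early and ccne1 fell over the course, with 1 replicate of ccne1 apart. ccne2 had 53.6, 16.9 and 7.85 CPM at sphere, 238, 178 and 93.4 at 30% epiboly and 387, 388 and 319 at shield. The first step was 2.70 ± 0.37 on the log2 scale (edgeR adjusted p 3.57e-07), and the libraries of the 2 stages did not overlap. It had declined to 51.7, 132 and 145 CPM by 2-somite. ccne1 went from 63.1, 73.1 and 0.308 CPM at sphere to 4.45, 3.67 and 1.49 CPM at 2-somite. Its values were 69.8, 71.8 and 4.87 CPM at 30% epiboly and 48.3, 61.6 and 8.84 CPM at 50% epiboly, so replicate C was the lowest at each of these stages. The other 8 sphere libraries, injected ones included, held 25.9 to 73.1 CPM, and from shield on replicate C lay near the rest. The fall of ccne1 was -3.83 ± 0.82 on the log2 scale with all libraries (edgeR adjusted p 7.94e-05) and -4.41 without the sphere library of replicate C (edgeR adjusted p 1.51e-07). It was also called with ndr2 (-2.23) and CA-acvr1b* (-2.65), and what sets replicate C apart was not tested.

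**Figure D2:**
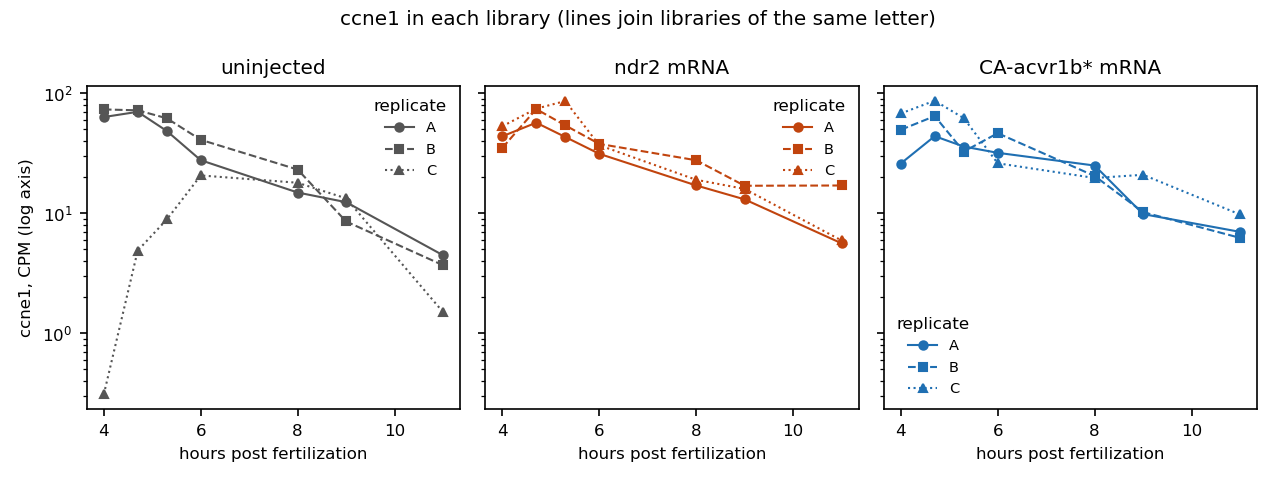
ccne1 in each library, in CPM on a log axis, against hours post fertilization, with 1 panel per condition and 1 line per lettered replicate. Uninjected replicate C starts at 0.308 CPM and joins the other replicates at shield (20.6 CPM), while the other 8 series start at 25.9 to 73.1 CPM and all are lower at 2-somite.

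D-type cyclins, which carry growth signals to Cdk4 and Cdk6, included the gene classed as peaking. ccnd1 (ENSDARG00000101637) had 838, 536 and 171 CPM at sphere, 2075, 2269 and 2400.2 at shield and 153, 422 and 461 at 2-somite. Shield was above both ends in all libraries, by 2.13 ± 0.35 over sphere and by 2.70 ± 0.36 over 2-somite on the log2 scale (edgeR adjusted p 1.29e-06 and 4.10e-08). The sphere libraries were spread widely, with replicate A highest and replicate C lowest, and sphere was not called against 2-somite (log2 difference -0.58 ± 0.34). That difference became 0.30 without replicate A and -1.26 without replicate C, where it was called. ccnd2a fell from 9.57, 13.5 and 9.59 to 1.48, 4.17 and 3.05 CPM, a log2 change of -1.90 ± 0.40 (edgeR adjusted p 3.61e-05). ccnd3 fell from 9.18, 11.0 and 14.4 to 0.269, 1.80 and 2.60 CPM, a log2 change of -2.88 ± 0.50 (edgeR adjusted p 1.40e-06). Both pairs of stages were free of overlap. ccnd2b was at or under the floor at sphere, with 0.0557, 0 and 0 CPM, and at 2.49, 1.12 and 1.95 CPM at 2-somite (edgeR adjusted p 5.25e-04), and no fold is given for it.

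**Figure D3:**
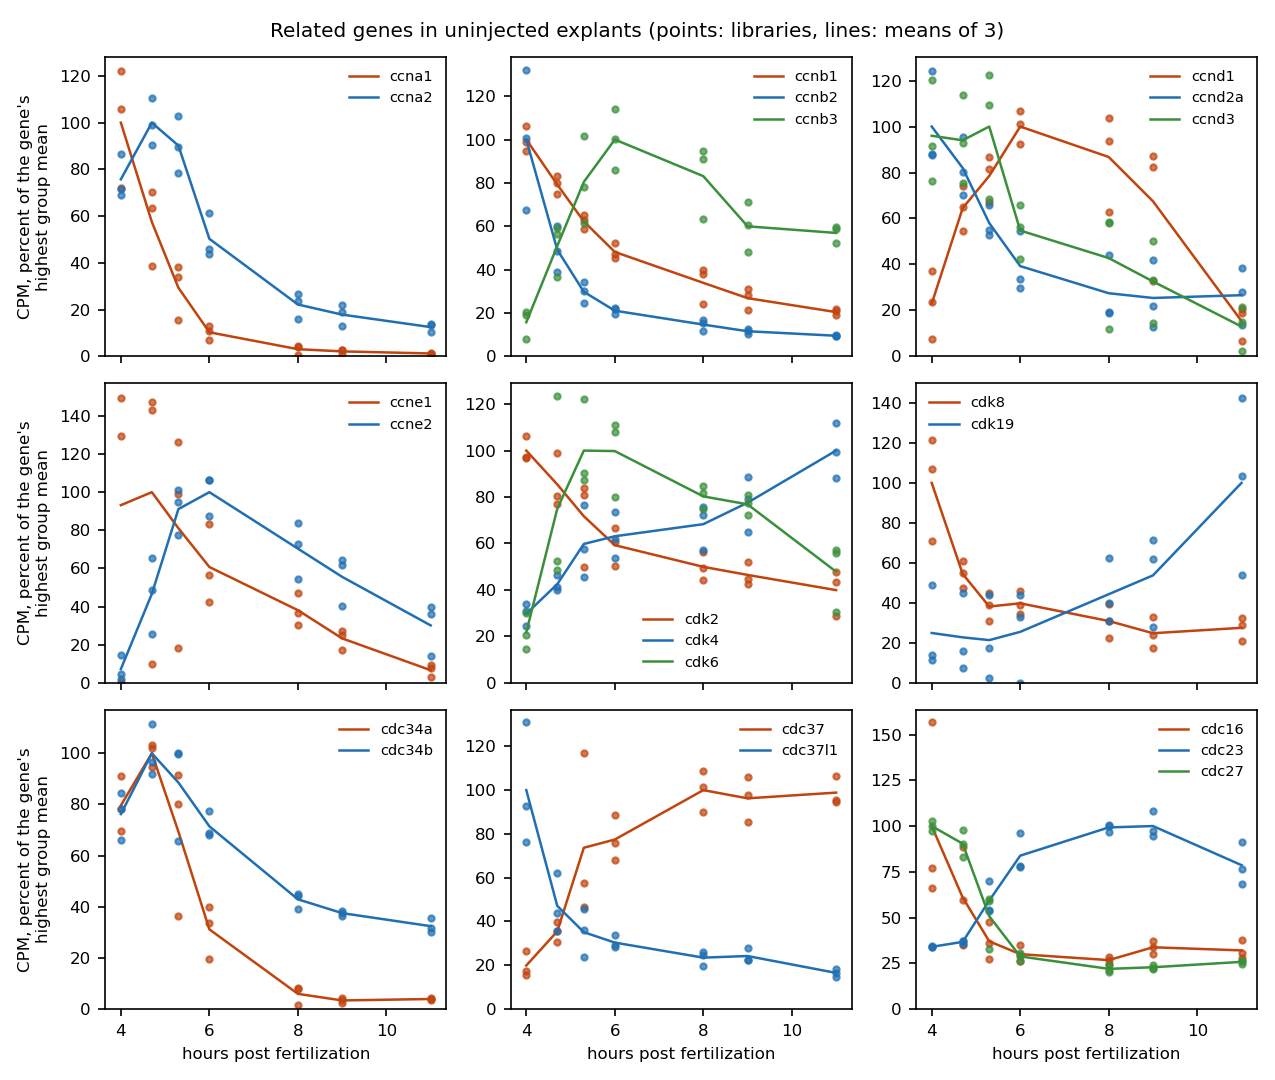
Courses of 9 groups of related genes in uninjected explants, as CPM in percent of the gene's own highest group mean (vertical axis) against hours post fertilization (horizontal axis), with points for libraries and lines for means of 3. ccnb3, ccne2, cdk4, cdk6, cdc37 and cdc23 rise while related genes decline, and cdc34a drops further below its maximum than cdc34b.

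Among the Cdks, cdk2 fell while both G1 kinases rose. cdk2, the partner of E-type and A-type cyclins, went from 99.0, 99.6 and 109 CPM at sphere to 29.3, 49.0 and 44.3 CPM at 2-somite (log2 change -1.32 ± 0.15, edgeR adjusted p 6.79e-11). cdk4 went from 27.6, 20.1 and 25.2 to 91.6, 72.3 and 81.4 CPM (log2 change 1.75 ± 0.18, edgeR adjusted p 2.98e-12). Neither gene had overlapping stages. cdk6 rose mainly in the first step, from 15.4, 10.4 and 7.39 CPM at sphere to 62.97, 26.83 and 24.84 CPM at 30% epiboly (1.79 ± 0.28 on the log2 scale, edgeR adjusted p 2.09e-06), and had 15.6, 28.5 and 29.1 CPM at 2-somite. The share of cdk4 in the reads of cdk4 and cdk2 went from 16.8 to 21.8% at sphere to 59.6 to 75.7% at 2-somite. Of the Mediator kinases, cdk8 fell from 43.02, 73.60 and 64.85 to 12.5, 19.7 and 17.6 CPM (log2 change -1.86 ± 0.26, edgeR adjusted p 1.92e-08). Its paralog cdk19 had 0.278, 0.340 and 1.18 CPM at sphere and 3.44, 2.49 and 1.30 CPM at 2-somite, a rise of 1.99 ± 0.84 (edgeR adjusted p 0.0350) that was not called without any 1 of 4 of the 6 libraries (A or B of either stage). It stayed at a few CPM, and cdk19 took about 0.5 to 1.8% of the pair's reads at sphere and about 7 to 22% at 2-somite.

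cdk14 and cdk15, Cdk relatives of the PFTAIRE family that bind cyclin Y, also diverged, both at low levels. cdk14 fell from 4.68, 4.41 and 5.75 to 1.15, 1.62 and 0.844 CPM (edgeR adjusted p 0.00365). cdk15 had 0.223, 0 and 0.103 CPM at sphere, 3.63, 7.55 and 6.18 at 75% epiboly and 0.0674, 1.24 and 1.23 at 2-somite. At sphere 2 of the 3 libraries were under the floor of 3 counts, so no fold is given for cdk15. The libraries of sphere and 75% epiboly did not overlap (edgeR adjusted p 1.35e-04). The value at 2-somite rested on replicates B and C, and the call against sphere was lost without either of these replicates at either stage. cdk16, the PCTAIRE relative, dipped from 60.7, 61.1 and 66.3 CPM at sphere to 17.0, 12.9 and 18.6 at shield and was at 46.1, 48.5 and 46.5 at 2-somite. Shield was below sphere by 3.88-fold (edgeR adjusted p 1.54e-12), with no overlap at either end. cdk5rap2, a centrosome protein, fell from 158, 103 and 177 CPM at sphere to 22.1, 30.6 and 34.5 CPM at 50% epiboly and had 52.6, 47.5 and 51.0 CPM at 2-somite.

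cdk12 and cdk13, paralogs that phosphorylate the tail of RNA polymerase II, both fell. cdk12 went from 499, 416 and 439 CPM at sphere to 235, 251 and 273 at 2-somite, and cdk13 from 252, 274 and 329.8 to 156, 178 and 173, with log2 changes of -0.83 and -0.75 (edgeR adjusted p 2.52e-09 and 1.99e-06), and cdk12 took 57.1 to 66.5% of their joint reads at sphere and 58.5 to 61.2% at 2-somite. cdk7, part of the Cdk-activating kinase and of TFIIH, had 24.5, 18.6 and 18.5 CPM at sphere, 37.8, 47.1 and 43.2 at shield and 18.1, 30.4 and 31.2 at 2-somite. Its change between the ends was 0.37 ± 0.16 and was not called without replicate B or C of either stage. cdk10, cdk20 and cdk2ap2 were not called between the ends, with log2 changes of 0.052 ± 0.17, -1.49 ± 0.80 and -0.20 ± 0.16.

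Among the Cdc genes of protein turnover, a pair of paralogs fell to different extents. cdc34a and cdc34b encode ubiquitin-conjugating enzymes that work with SCF ligases. cdc34a (ENSDARG00000069708) had 320.1, 274 and 245 CPM at sphere, 69.0, 141 and 119 at shield, 5.13, 29.6 and 28.0 at 75% epiboly and 13.9, 15.4 and 12.2 at 2-somite. cdc34b had 231, 249 and 195 CPM at sphere, 133, 131 and 116 at 75% epiboly and 89.2, 105 and 92.9 at 2-somite. Both fell without overlap between sphere and 2-somite, by 20.2-fold for cdc34a and 2.35-fold for cdc34b (edgeR adjusted p 2.51e-13 and 1.61e-12). The share of cdc34b in the reads of both was 41.9 to 47.6% at sphere and 86.5 to 88.4% at 2-somite. In the anaphase promoting complex, the scaffold subunits cdc16 and cdc27 fell while cdc23 rose. cdc27 went from 594, 577 and 563 to 142, 152 and 153 CPM (log2 change -1.95 ± 0.14, edgeR adjusted p 1.44e-17). cdc23 went from 27.3, 27.5 and 27.9 to 55.2, 61.8 and 74.1 CPM (log2 change 1.21 ± 0.13, edgeR adjusted p 1.04e-11). Neither overlapped between the stages. cdc20, the activator of the complex in mitosis, fell from 641, 742 and 760.0 to 252, 256 and 249.8 CPM.

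cdc37 and cdc37l1 moved in opposite directions over the same hours. cdc37, the Hsp90 co-chaperone that loads kinases, rose from 48.4, 28.8 and 31.7 to 173, 174 and 194 CPM (log2 change 2.31 ± 0.20, edgeR adjusted p 1.50e-14). The related cdc37l1 fell from 57.5, 70.2 and 98.9 to 12.3, 11.1 and 14.0 CPM (log2 change -2.60 ± 0.22, edgeR adjusted p 5.31e-15). No library of one stage reached those of the other, and cdc37 went from 24.3 to 45.7% of the pair's reads at sphere to 93.3 to 94.0% at 2-somite. cdc45, a subunit of the replicative helicase, rose from 19.5, 16.4 and 19.2 to 53.6, 76.9 and 80.7 CPM (log2 change 1.94 ± 0.19, edgeR adjusted p 4.37e-13). cdc25b, a phosphatase that activates Cdks, fell from 563, 756 and 678 to 280.5, 337 and 341 CPM (log2 change -1.06 ± 0.13), while cdc25d had 1.28, 1.79 and 2.00 CPM at sphere and 1.95, 1.49 and 1.30 CPM at 2-somite and was not called. At 2-somite cdc25b lay below sphere in every library, whereas the stages of cdc25d overlapped. cdc14aa had 0.445, 0.0970 and 0.103 CPM at sphere and 1.15, 0.560 and 0.520 at 2-somite, cdc14ab 104, 87.4 and 97.2 and 82.1, 102 and 101, and cdc14b 99.9, 120.4 and 144 and 162, 139 and 132. These Cdc14 phosphatases, which act against Cdks, were not called between the ends, with log2 changes of -0.021 ± 0.12 for cdc14ab and 0.25 ± 0.15 for cdc14b. No fold is given for cdc14aa, whose sphere replicates B and C were under the floor of 3 counts.

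The other members with a small change between the ends were cdc5l and cdc40 of the spliceosome, with log2 changes of -0.67 ± 0.094 and -0.18 ± 0.14, cdc7, the kinase that fires replication origins, with -0.50 ± 0.15, cdk5, the kinase best known from neurons, with -0.50 ± 0.20, and cdk11b, a kinase linked to splicing, with -0.34 ± 0.14. All but cdc40 were called, and the calls of cdc7, cdk5 and cdk11b, whose stages overlapped, were lost without single libraries. cdc5l had 399, 349 and 348 CPM at sphere and 215, 226 and 249.7 at 2-somite. Of the remaining falling genes, cdc73 went from 159.5, 163 and 175 to 74.0, 81.5 and 76.8 CPM and cdc16 from 36.7, 86.9 and 42.7 to 15.36, 16.99 and 20.98 CPM, in both cases without overlap. Of the rising ones, cdc123, a factor for assembly of the initiation factor eIF2, went from 5.07, 3.98 and 4.10 to 13.1, 18.9 and 19.6 CPM (1.97 ± 0.29 on the log2 scale).

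The injected explants shared most of these courses. The log2 change of ccna1 was -7.27 with ndr2 and -7.09 with CA-acvr1b*, that of ccnb3 1.82 and 2.17, and that of ccne2 3.74 and 3.63, all called. ccne2 kept its direction but changed by 2.07 in uninjected explants, and the course difference with ndr2 was called (edgeR adjusted p 0.0406). With CA-acvr1b* that difference was called by DESeq2 (adjusted p 0.0259) and not by edgeR. Calls differed from those in uninjected explants for ccnd1, ccnd2a, cdc14aa, cdk11b and cdk15, which by itself does not test a difference between courses. Among these genes the course difference itself was called in edgeR for ccnd1 with each mRNA and for ccnd2a with CA-acvr1b*. It was not called in edgeR for cdc14aa, cdk11b or cdk15, while DESeq2 called it for cdk15 with ndr2 (adjusted p 0.0393). ccnd1 was higher at 2-somite than at sphere with ndr2 (1.80 ± 0.35, edgeR adjusted p 1.67e-05) and with CA-acvr1b* (1.59 ± 0.35, edgeR adjusted p 9.47e-05). ccnd2a was not called in either, with -0.42 ± 0.38 and 0.064 ± 0.38. cdc14aa was called as higher in both, from a mean of 0.115 CPM at sphere to 1.16 at 2-somite with ndr2 and from 0.195 to 1.47 with CA-acvr1b*. These sphere means were under or near the floor of 3 counts, so no fold is given. The CA-acvr1b* call of cdc14aa was lost without replicate A of either stage. cdk11b and cdk15 were called in neither condition.

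At 2-somite ccnd1 and ccnd2a were higher with both ndr2 and CA-acvr1b*, and at earlier stages edgeR called at most 1 gene of the set per comparison. The comparisons of each mRNA with uninjected explants use the same uninjected libraries and are not independent of each other. With ndr2, no gene of the set was called at sphere, 30% epiboly or shield in edgeR (0.236%, 0.225% and 1.07% of all genes), with 4, 4 and 5 at an unadjusted p under 0.05 and 1, 0 and 0 called by DESeq2. The gene that DESeq2 called at sphere was ccne2, with 10.8, 6.41 and 12.9 CPM with ndr2 against 53.6, 16.9 and 7.85 in uninjected explants. The groups overlapped, replicate A being the highest uninjected library, and the log2 difference was -1.37 with both tools (adjusted p 0.00992 in DESeq2 and 0.106 in edgeR). A single gene was called at each of 50% (1.46% of all genes), 75% (1.81%) and 90% epiboly (2.61%), and 6 were called at 2-somite (12.2% of all genes). In all, 8 were called with ndr2 at 1 stage or more against 15.0% of all genes. With CA-acvr1b*, no gene was called at the first 4 stages in edgeR (0.042%, 0.173%, 0.357% and 0.472% of all genes) or DESeq2, with 3, 2, 4 and 2 at an unadjusted p under 0.05 in edgeR. For that mRNA 1 gene was called at 75% (1.62% of all genes), 1 at 90% epiboly (2.49%) and 2 at 2-somite (9.15%), and 3 at 1 stage or more (9.95%). The shares at 2-somite, 12.8% of the set with ndr2 and 4.26% with CA-acvr1b*, lay close to or under those of all genes.

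At 2-somite ccnd1 had 153, 422 and 461 CPM in uninjected explants, 1019.5, 1356 and 975 with ndr2 and 1122, 884 and 1054 with CA-acvr1b*. Every injected library was above every uninjected one, although uninjected replicate A was well below the other 2. The fold was 3.23 with ndr2 (log2 1.69 ± 0.35, edgeR adjusted p 4.86e-04) and 2.95 with CA-acvr1b* (log2 1.56 ± 0.35, edgeR adjusted p 0.00145). Without uninjected replicate A at 2-somite these were 1.34 and 1.21 on the log2 scale, still called. At 90% epiboly the log2 differences were 0.26 ± 0.34 and 0.26 ± 0.34, not called. From 90% epiboly to 2-somite ccnd1 fell in uninjected explants by 4.39-fold (log2 change -2.13 ± 0.35, edgeR adjusted p 6.52e-05). Without replicate A that change was -2.12 (edgeR adjusted p 8.84e-04).

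ccnd2a (ENSDARG00000051748) had 1.48, 4.17 and 3.05 CPM at 2-somite in uninjected explants, 8.39, 6.63 and 10.1 with ndr2 and 13.5, 6.49 and 9.10 with CA-acvr1b*. The groups did not overlap. The log2 differences were 1.53 ± 0.39 with ndr2 (edgeR adjusted p 0.00504) and 1.73 ± 0.40 with CA-acvr1b* (edgeR adjusted p 0.00167). The first was 1.22 and not called without uninjected replicate A at 2-somite (edgeR adjusted p 0.0757). In both injected conditions ccnd2a rose from 90% epiboly to 2-somite, by 1.48 ± 0.40 with ndr2 and 1.65 ± 0.40 with CA-acvr1b* on the log2 scale (edgeR adjusted p 0.0100 and 0.00662).

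cdc34b was called at 75% epiboly and in 1 condition each at the next stages. At 75% epiboly it had 133, 131 and 116 CPM in uninjected explants, 195, 169.9 and 178 with ndr2 and 213, 169.8 and 171 with CA-acvr1b*, without overlap between injected and uninjected libraries. The log2 differences there were 0.52 ± 0.12 and 0.55 ± 0.12 (edgeR adjusted p 0.0124 and 0.00589). The first was not called without uninjected replicate C or ndr2 replicate A, and the second not without uninjected replicate C or CA-acvr1b* replicate A. At 90% epiboly it had 113, 108 and 111, 139, 149.7 and 152 and 185, 169.8 and 152 CPM in the same order of conditions. Injected libraries were again all higher, and the difference was called with CA-acvr1b* (0.61 ± 0.12, edgeR adjusted p 9.79e-04) and not with ndr2 (0.41 ± 0.12, edgeR adjusted p 0.0582). At 2-somite it had 89.2, 105 and 92.9, 131, 161 and 126 and 141, 100.3 and 123 CPM, called with ndr2 (0.54 ± 0.12, edgeR adjusted p 0.00141) and not with CA-acvr1b* (0.34 ± 0.12, edgeR adjusted p 0.0729), where 1 library fell within the uninjected range. Its paralog cdc34a was lower with ndr2 at 2-somite, 5.98, 6.80 and 6.89 against 13.9, 15.4 and 12.2 CPM, a call at the threshold (-1.08 ± 0.37, edgeR adjusted p 0.0495) that was lost on leaving out any 1 of the 6 libraries. With CA-acvr1b* cdc34a had 6.52, 8.37 and 5.83 CPM, also without overlap with uninjected explants, at -0.99 ± 0.37 on the log2 scale (edgeR adjusted p 0.0924), a difference that DESeq2 called (adjusted p 0.0264).

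**Figure D4:**
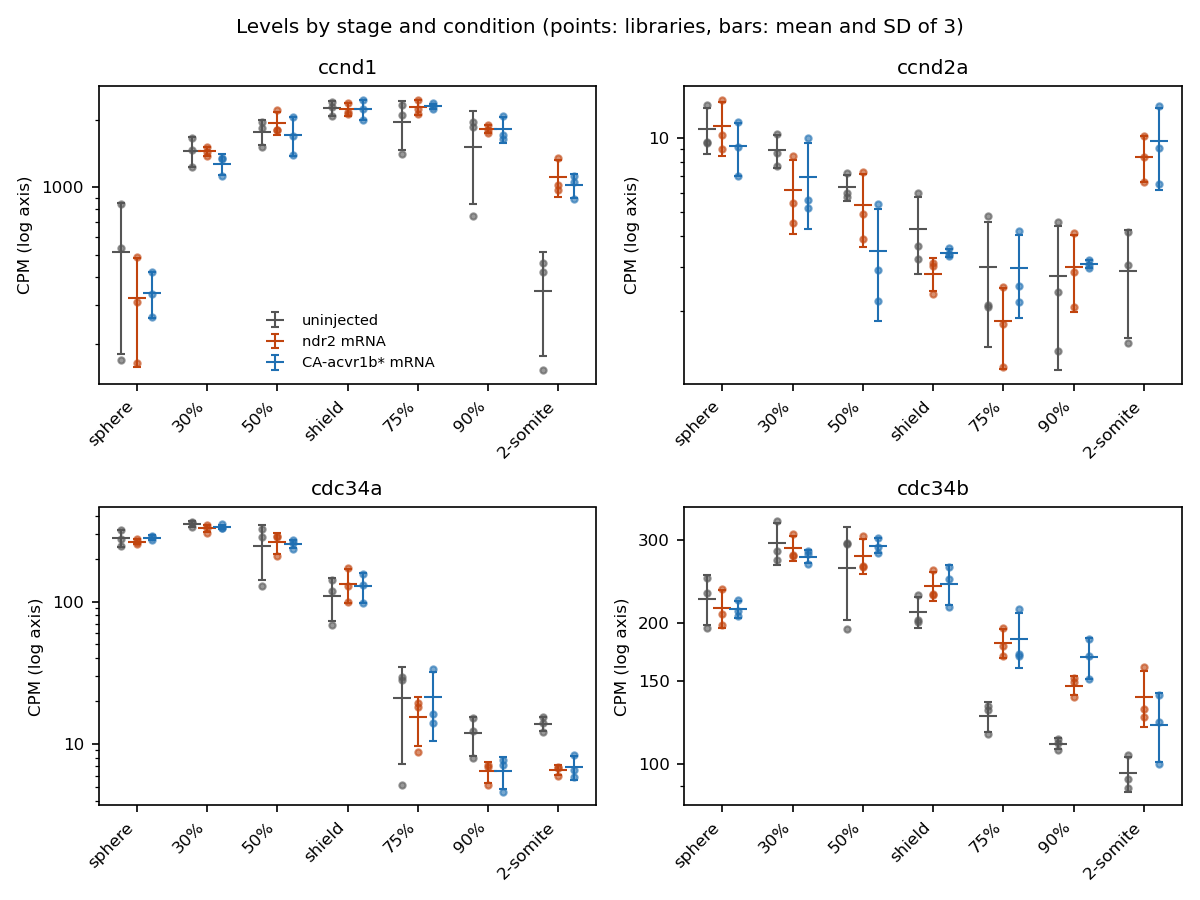
ccnd1, ccnd2a, cdc34a and cdc34b by stage (horizontal axis) and condition (colour), in CPM on a log axis, with points for libraries and bars for the mean and SD of 3. ccnd1 and ccnd2a separate injected from uninjected libraries at 2-somite, and cdc34b does so at 75% and 90% epiboly.

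The remaining calls at single stages were all with ndr2. cdc73, a subunit of the Paf1 elongation complex, had 103, 112 and 96.2 CPM against 74.0, 81.5 and 76.8 in uninjected explants at 2-somite (0.42 ± 0.12, edgeR adjusted p 0.00930), a call lost without ndr2 replicate B or uninjected replicate A. cdk12 had 356, 311 and 335 against 235, 251 and 273 CPM (0.40 ± 0.11, edgeR adjusted p 0.00823), lost without replicate A of either condition. Neither gene overlapped between these conditions. cdk13 at 90% epiboly had 311, 282 and 289.7 against 165, 213 and 205 CPM (0.60 ± 0.13, edgeR adjusted p 0.00469), without overlap, a call lost without uninjected replicate A. cdk4 at 50% epiboly had 37.2, 28.3 and 21.8 against 62.6, 46.9 and 37.1 CPM (-0.75 ± 0.18, edgeR adjusted p 0.0181). Its libraries overlapped narrowly, and the call was lost without ndr2 replicate B or C or uninjected replicate A.

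**Figure D5:**
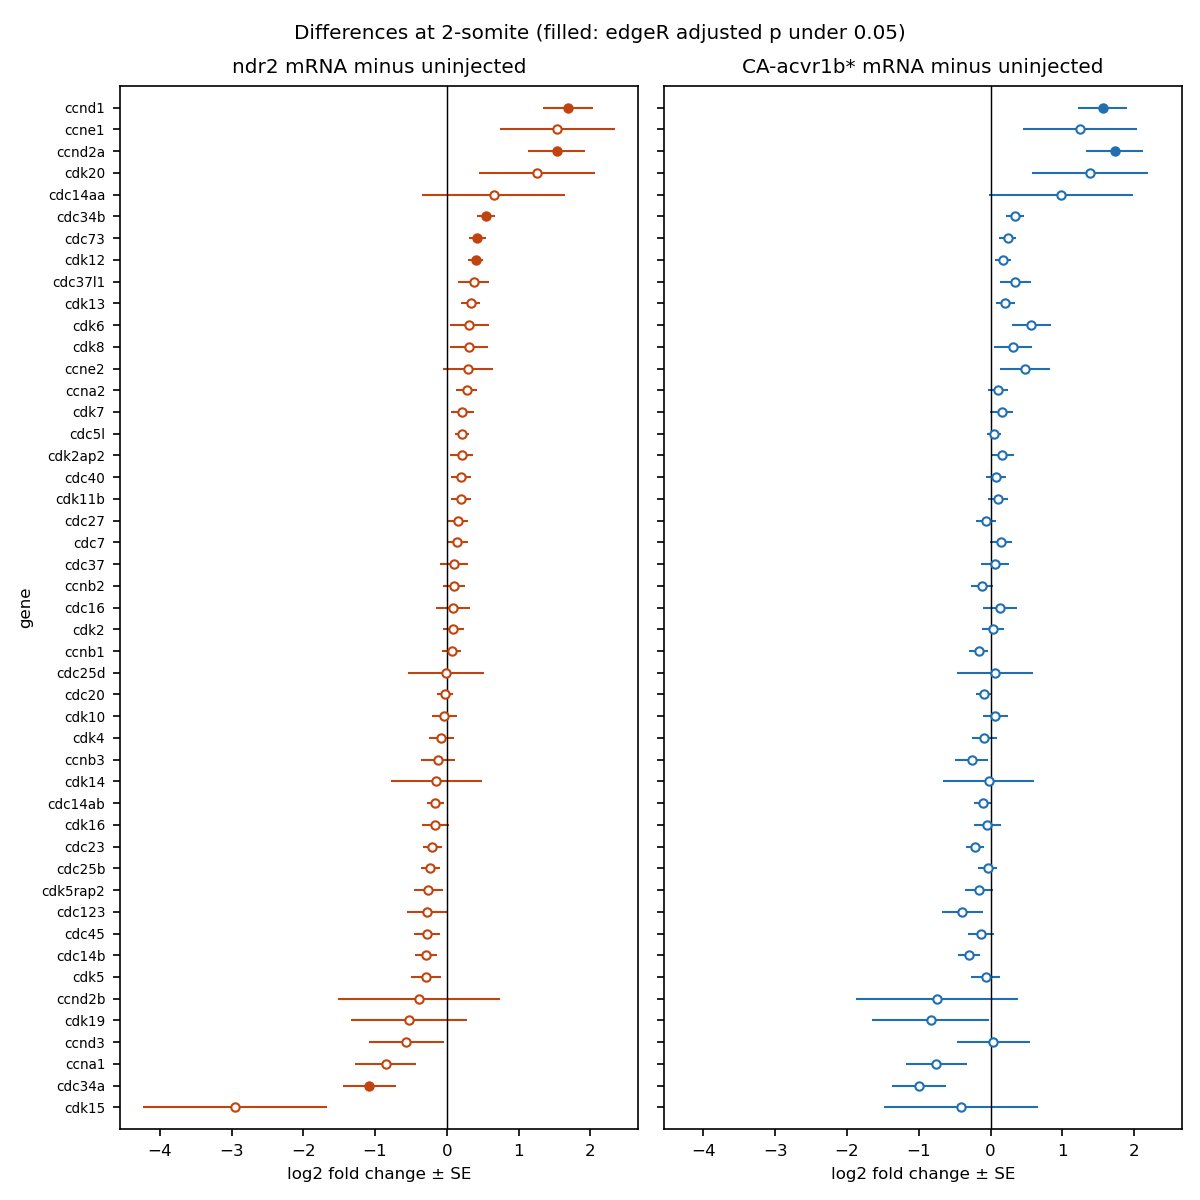
Log2 fold change ± SE at 2-somite for the 47 tested genes (vertical axis, ordered by the ndr2 difference), with ndr2 against uninjected explants on the left and CA-acvr1b* on the right, which share the uninjected libraries. Filled points mark an edgeR adjusted p under 0.05, 6 genes on the left and 2 on the right.

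Averaged over the 7 stages, 10 genes were called with ndr2 against 17.9% of all genes, 3 with CA-acvr1b* against 6.81%, and 4 between ndr2 and CA-acvr1b* against 8.99%. The ndr2 differences were small. The 5 largest rises on the log2 scale were 0.33 for cdk6, 0.32 for cdc37l1, 0.26 for cdk13, 0.23 for cdc34b and 0.22 for ccnb2, and the falls were -0.23 for cdc45 and -0.22 for cdk4. With CA-acvr1b* cdc34b rose by 0.24, and cdc23 and cdc14ab changed by -0.16 and -0.14. An average counts libraries of the same letter as independent. Summing each letter's counts across stages before the edgeR test gave 1 call with ndr2, 0 with CA-acvr1b* and 0 between them.

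The effect of ndr2 depended on stage for 4 genes of the set (ccnd1, cdc34b, cdc5l and cdk12), against 5.32% of all genes, and that of CA-acvr1b* for 2 (ccnd2a and cdc34b), against 3.43%. The change from sphere to 2-somite differed from that of uninjected explants for 3 genes with ndr2 (ccnd1, ccne2 and cdc34b), against 5.55% of all genes, and for 2 with CA-acvr1b* (ccnd1 and ccnd2a), against 3.77%. For ccne2 the difference from uninjected explants was -1.37 ± 0.37 at sphere and 0.29 ± 0.35 at 2-somite, and the course difference was 0.34 and not called without replicate A (edgeR adjusted p 0.863). Dependence on stage was called for 4 and 2 genes with all libraries, and for 0 to 1 with ndr2 and 0 with CA-acvr1b* on leaving out a lettered replicate. Without the 2-somite stage no gene of the set was called for it in edgeR.

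The 2 injected conditions were not told apart at any single stage. No gene of the set was called between ndr2 and CA-acvr1b* in edgeR at any stage, where 0.0524% to 0.718% of all genes were at single stages and 1.55% at 1 stage or more, with 2, 4, 4, 2, 1, 5 and 1 genes at an unadjusted p under 0.05 from sphere to 2-somite. DESeq2 called 2, cdk4 and cdk6 at 50% epiboly. On average over stages cdk6 (0.33 ± 0.10) and cdk13 (0.17 ± 0.05) were higher with ndr2, and cdk8 (-0.31 ± 0.098) and cdk10 (-0.21 ± 0.066) lower (edgeR adjusted p 0.0298, 0.0211, 0.0325 and 0.0342). For ccnd1 at 2-somite the difference between the 2 was 0.13 ± 0.34 on the log2 scale.

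Markers of other tissues moved with the condition at 2-somite. The summed level of 6 notochord and axial mesoderm markers was 1.75 to 7.86 CPM in uninjected explants, 372 to 806 with ndr2 and 282 to 1216 with CA-acvr1b*. In all uninjected libraries 3 of the 6 (col2a1a, shha and shhb) were at 0. Of these, col2a1a and shha did not pass the low count filter over all groups, so their zeros do not set the conditions apart. The 6 muscle precursor markers summed to 1.62 to 2.22, 23.4 to 114 and 9.97 to 52.2 CPM, and 4 neuron markers to 4.92 to 5.59, 17.2 to 24.1 and 13.6 to 39.8 CPM, in the same order of conditions. In edgeR, 4 of 4 tested axial, 2 of 4 muscle and 1 of 3 neuron markers were higher with each mRNA. The muscle markers called were myf5 and myod1. On the log2 scale acta1a (-0.0075 with ndr2 and 0.32 with CA-acvr1b*) and actc1b (-1.33 and 2.36) were not called. The neuron marker called was elavl3 (2.23 with ndr2 and 2.42 with CA-acvr1b* on the log2 scale), and stmn2a (-3.17 and -3.17) and elavl4 (-1.42 and -2.07) had values of the opposite sign that were not called. The 10 enveloping layer markers summed to 27922 to 37249 CPM in uninjected explants, 22303 to 29767 with ndr2 and 25286 to 27856 with CA-acvr1b*. The part of these tissues in the differences of ccnd1, ccnd2a and cdc34b was not tested.

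Other genes of the cycle, from lists chosen with earlier results of these data known, gave context for the set. In uninjected explants from sphere to 2-somite, 8 of 20 tested replication licensing genes rose and 10 fell. mcm6 and mcm3, subunits of the helicase, rose by 4.06 and 2.35 on the log2 scale, and orc6 of the origin recognition complex changed by -3.55. Of all genes 33.2% rose and 33.1% fell. Of 11 E2f and Rb genes, 7 rose and 1 fell, with e2f7 at 3.52. Mitotic kinases and checkpoint genes divided into 6 risen and 8 fallen of 17, with bub3 at 4.18 and plk3 at -2.43. The anaphase promoting complex and its partners gave 7 risen and 3 fallen of 16. There ube2c had separate entries at 2.57 and 0.97, both counted as risen. Other cyclins gave 4 risen and 10 fallen of 17, with ccny at 5.11 and ccnj at -2.86. The fallen ones of that list include mnat1 (-1.46), which is not a cyclin. Median log2 changes were -0.62, 0.89, -0.49, 0.41 and -0.52 for these 5 lists, against 0.03 over all genes.

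Cdk inhibitors and inhibitory kinases held large changes in both directions, 2 risen and 2 fallen of 11, with a median of 0.41. cdkn1ba, an inhibitor of the Kip family, went from 0.445, 0.242 and 0.462 CPM at sphere to 104, 67.1 and 66.2 at 2-somite (7.67 on the log2 scale). wee2, a kinase that inhibits Cdk1 in mouse oocytes, went from 176, 64.2 and 197 to 1.62, 2.24 and 2.21 CPM (-6.16). At both genes the stages stayed apart in every library. The Kip family genes cdkn1ca and cdkn1cb were higher in injected explants at 2-somite, while cdkn1a of the same family was lower with ndr2. The list had 2 genes higher and 1 lower with ndr2 (median log2 difference -0.24) and 2 higher and none lower in edgeR with CA-acvr1b* (median -0.32). cdkn1a had 16.5, 25.5 and 21.6 CPM in uninjected explants, 3.84, 7.15 and 8.74 with ndr2 and 4.34, 22.9 and 8.09 with CA-acvr1b* (log2 differences -1.69 and -0.83, edgeR adjusted p 0.0172 and 0.366), so that only the CA-acvr1b* libraries overlapped the uninjected ones. cdkn1ca had 25.9, 23.1 and 27.2 CPM in uninjected explants, 177, 208 and 106 with ndr2 and 239, 79.3 and 131 with CA-acvr1b* (log2 differences 2.68 and 2.56, edgeR adjusted p 8.54e-08 and 2.33e-07). For cdkn1ca, every injected library was above every uninjected one. cdkn1cb had 5.05, 8.46 and 6.82 CPM in uninjected explants, 33.0, 54.2 and 32.3 with ndr2 and 16.0, 13.8 and 14.3 with CA-acvr1b*. Its log2 differences from uninjected explants were 2.55 and 1.11 (edgeR adjusted p 8.27e-10 and 0.00378). cdkn1cb was also higher with ndr2 than with CA-acvr1b* (1.44 on the log2 scale, edgeR adjusted p 0.00261). Of 20 licensing genes, 7 were higher with ndr2 and 3 with CA-acvr1b* at 2-somite, none lower in edgeR. Among all genes 7.40% were higher with ndr2 and 6.46% with CA-acvr1b* at that stage. The licensing genes higher with both included orc6 at 0.72 and 0.87 on the log2 scale. The ndr2 count includes gmnn, an inhibitor of licensing. At 2-somite gmnn had 0 CPM in all uninjected libraries, 10.7, 11.8 and 5.33 with ndr2 and 0.300, 0 and 0 with CA-acvr1b*, so no fold is given for it. Uninjected explants already had only 0.0556, 0.145 and 0.103 CPM of gmnn at sphere, 1, 3 and 2 counts. Within ndr2 explants gmnn was higher at sphere than at 2-somite (log2 change to 2-somite -3.24 ± 1.18, edgeR adjusted p 0.0149). The difference was thus not read as a rise of gmnn with ndr2 at 2-somite, and how the low counts in uninjected explants arose was not tested. Averaged over the stages, 2-somite included, gmnn was higher with ndr2 than in uninjected explants (edgeR adjusted p 1.90e-11) and than with CA-acvr1b* (edgeR adjusted p 2.58e-10).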

How the data were processed

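Whole explants were sequenced as polyadenylated RNA. The authors deposited raw read counts per gene for 63 libraries; Trim Galore, STAR, featureCounts and the GRCz11 (danRer11) build are named in the submitters' processing notes, without versions, and the annotation release and strand setting are not given in the sources used here. Libraries were grouped by condition and stage from the labels. edgeR 4.0.16 (R 4.3.3) was used with TMM scaling, filterByExpr over the 21 groups (minimum count 10, total 15) and 1 robust quasi-likelihood fit of all 63 libraries with a mean per group, 42 residual degrees of freedom and a prior count of 0.125. P-values were adjusted over 19069 genes, and SE is the log2 fold change over the root of F. CPM use TMM-scaled totals. Scripts were tested on simulated data. Falling and rising genes were called at 2-somite against sphere with a log2 change of at least 1. Only genes in neither class could be peaking or dipping, called in the same way at an intermediate stage against both. Values are printed for paralog families, for genes called at single stages, for up to 5 called genes per direction on average with at least 5 CPM, and for the examples of other lists with the largest called changes. Members were taken by symbol alone, and the symbol rule and the gene lists were set with earlier results of these data known. Alternatives were DESeq2 1.42.0, its size factors in edgeR, no filter, only the 6 libraries compared, a replicate block over all conditions or (added after seeing the data) within each, counts summed over stages, no 2-somite stage, and leaving out libraries. No sequences or coordinates were used here.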

Additional observations from a re-analysis of the deposited data

Results flagged for a closer look

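Each result here is a difference between effects at several stages, tested in the edgeR fit of all libraries with p adjusted over all genes. The ndr2 effect depended on stage for ccnd1 (edgeR adjusted p 0.0353), cdc34b (0.0329), cdc5l (0.0362) and cdk12 (0.0120), where 5.32% of all genes did so. The CA-acvr1b* effect depended on stage for ccnd2a (edgeR adjusted p 0.0410) and cdc34b (0.0168), where 3.43% of all genes did so. Fewer genes were called under some settings. Leaving out a lettered replicate gave 0 to 1 genes with ndr2 and 0 with CA-acvr1b*. No low count filter gave 0 for both, and DESeq2 size factors in edgeR gave 2 and 1. DESeq2 called 4 and 3, partly other genes. With ndr2 these were ccnd1, ccnd2a, cdc5l and cdk12, without cdc34b. With CA-acvr1b* they were ccnd1, ccnd2a and cdc34b.

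The change from sphere to 2-somite differed between ndr2 and uninjected explants for ccnd1 by 2.37 on the log2 scale (edgeR adjusted p 0.00112), for ccne2 by 1.67 (0.0406) and for cdc34b by 0.61 (0.0259), where 5.55% of all genes differed. The ccne2 difference was 0.34 without replicate A and 1.74 without replicate B, neither called (edgeR adjusted p 0.863 and 0.329). With the letter as a block within each condition, an alternative chosen after seeing the data, it was 1.55 and not called (edgeR adjusted p 0.0790). The cdc34b difference was not called without replicate A or B (edgeR adjusted p 0.132 and 0.468). With CA-acvr1b* the change differed for ccnd1 by 2.17 (edgeR adjusted p 0.00356) and for ccnd2a by 1.97 (0.0240), where 3.77% of all genes differed. The ccnd1 differences were 1.49 with ndr2 and 1.18 with CA-acvr1b* without replicate A, neither called (edgeR adjusted p 0.179 and 0.493). Without replicate B they were 2.04 and 2.58, also not called (edgeR adjusted p 0.180 and 0.0616). The ccnd2a difference was not called without replicate A or C (edgeR adjusted p 0.394 and 0.190).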

How the results depend on the processing

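The gene results recomputed were those called in the full fit, with the courses of paralog families added. Of these, 360 kept direction and side of the threshold under DESeq2, 354 under DESeq2 size factors in edgeR and 327 with no low count filter. Far fewer did so without a lettered replicate, 292 without A, 211 without B and 228 without C. In these fits 74, 158 and 137 results were no longer called. The average effect over stages gave 1 call with ndr2 (10 in the fit of single libraries), 0 with CA-acvr1b* (3) and 0 between them (4) in edgeR on counts summed over stages, and 1 with CA-acvr1b* both with no filter and without the 2-somite stage. Dependence on stage gave, with ndr2 and CA-acvr1b*, 2 and 1 calls under DESeq2 size factors in edgeR, and 0 for both with no filter and without the 2-somite stage (4 and 2 otherwise). The course differed between ndr2 and uninjected explants for 5 genes under DESeq2 and 1 with no filter (3 otherwise). DESeq2 called 2 genes between ndr2 and CA-acvr1b* at single stages, and its size factors in edgeR 1. The cause was not tested. Single-library fits kept the dispersion trend of the full fit.

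Leaving out a library or a lettered replicate gave 32 to 36 genes for the uninjected course, 32 to 38 with ndr2 and 33 to 37 with CA-acvr1b*, and 21 to 34, 19 to 34 and 22 to 33 for consecutive stages. Against uninjected explants it gave 2 to 9 genes at 1 stage or more with ndr2 (2 to 6 at 2-somite) and 2 to 5 with CA-acvr1b* (1 to 3 at 2-somite), where ndr2 without uninjected replicate A at 2-somite had 4 and 2. Averages gave 4 to 10 with ndr2, 1 to 3 with CA-acvr1b* and 0 to 3 between them. Dependence on stage gave 0 to 1 with ndr2 and 0 to 0 with CA-acvr1b*, course differences 0 to 4 and 0 to 1, and single stages between ndr2 and CA-acvr1b* 0 to 1.

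Directions that reversed all belonged to uncalled changes from sphere to 2-somite. With a library or lettered replicate left out, cdk15 ranged from -5.59 to 0.89 with ndr2. With CA-acvr1b* the ranges were -0.27 to 0.47 for ccnd2a, -0.038 to 0.31 for cdc25d and -0.11 to 0.018 for cdk2ap2. In uninjected explants they were -1.26 to 0.30 for ccnd1, -0.14 to 0.11 for cdc14ab and -0.46 to 0.16 for cdc25d. With no filter ccnd2a was -0.042 with CA-acvr1b*. Under DESeq2, its size factors in edgeR and only the 6 libraries compared, cdk2ap2 was 0.014, 0.014 and 0.015 with CA-acvr1b*, and cdc14ab 0.052, 0.052 and 0.00037 in uninjected explants.

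The letters showed little pairing of libraries from different conditions at the same stage. Over 63 pairs from all comparisons of conditions, correlations of deviations from group means ran from -0.22 to 0.19, with 3 over 0.1. In 19 pairs a library correlated best with its own letter, mostly between ndr2 and uninjected explants. With the replicate block 366 results kept their call and 3 did not. The course from sphere to 2-somite then differed between ndr2 and uninjected explants for 2 genes, against 3 without the block. Within a condition, libraries of the same letter at consecutive stages did tend to deviate together, with median correlations of 0.17 in uninjected explants, 0.14 with ndr2 and 0.082 with CA-acvr1b* over 18 pairs each, while those of sphere and 2-somite ran from -0.033 to 0.072. The other fits treat them as independent. In a fit chosen after seeing the data, with the replicate block within each condition, 337 results between stages kept their call and 2 did not. It gave 38, 37 and 37 genes for the courses, as without the block.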
